A study of Drosophila melanogaster with 12 samples.

Results

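Xrp1 encodes a basic leucine zipper (bZIP) transcription factor of the fruit fly Drosophila melanogaster, and its transcript and the p53 binding at its locus are described here in embryos and in adult heads. It was 1 of 16510 genes listed in each of the 2 deposited expression tables, taken by its symbol. Its peaks were those overlapping 3R:18914000-18928000 on the dm6 build, which were 1 of 135 p53 peaks in embryos and 1 of 392 in heads. The gene lies on the plus strand at 3R:18914968-18926989.

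RNA came from embryos and heads of the wild-type strain yw and of the p53 mutant strain p535A-1-4, each either mock treated or given 40 Gy of ionizing radiation, with 1 library per group and 8 in all. Embryos were 3 to 4 h old at treatment and were sampled after a recovery of 1.5 h. Adults were grown for 1 to 2 weeks and their heads were mixed in each sample; a protocol text listed with the embryo samples gives irradiated flies a recovery of 3 h. Chromatin of embryos (4.5 to 5.5 h old) and heads of both strains, for which no radiation is given, was precipitated with a p53 antibody, again with 1 library per group. Each peak was called for wild type over mutant, per the labels; the peak names carry yw and another tag for the mutant, p53K1, and whether that is the strain p535A-1-4 is not given. The labels give no shared genetic background for the strains, so other strain differences and the loss of p53 cannot be told apart. No difference below has a replicate check.

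p53 is a transcription factor that is activated by DNA damage, and in flies it is known for switching on cell death and DNA repair genes. Xrp1 is known as one of its radiation-responsive targets. The Xrp1 protein pairs with Irbp18, another bZIP protein of the C/EBP kind, to bind DNA. The pair is known from cell competition, in which cells that lack one copy of a ribosomal protein gene are eliminated from growing tissue by their neighbours.

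The labels were checked with genes of known place. The p53 transcript stood at 0.340 to 0.700 FPKM (fragments per kilobase of transcript, scaled to the depth of the library) in the 4 mutant libraries and at 11.7 to 54.5 FPKM in the 4 wild-type ones. In heads the summed level of 4 photoreceptor genes was 7718 to 9507 FPKM and that of 5 neuron genes 642 to 663 FPKM, against 1.89 to 2.62 and 57.9 to 67.6 FPKM in embryos. In embryos 7 zygotic patterning genes summed to 356 to 389 FPKM, against 41.7 to 43.3 FPKM in heads. Of the head sum, ttk alone held 34.0 to 36.2 FPKM. From the spacing of low FPKM values the libraries held about 18.9 to 23.2 M fragments in embryos and 10.5 to 13.6 M in heads. At the lowest depth that the unknown fragment length allows, at least 740 fragments stood behind each Xrp1 value.

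In embryos Xrp1 was a gene of middling level until wild-type embryos were irradiated. It stood at 29.2 FPKM in the wild-type mock library and at 171 FPKM in the irradiated wild-type library. The mutant embryos held 28.2 FPKM without and 36.0 FPKM with radiation. The irradiated wild-type library was thus the one high embryo library, and the other 3 lay close together. Among genes at 1 FPKM or more in the same library, Xrp1 was above 58.1% in wild-type mock embryos, 57.7% in mutant mock embryos and 63.4% in irradiated mutant embryos. In irradiated wild-type embryos it was above 93.8%, at rank 617 of 9889 such genes.

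In heads Xrp1 was high in every library, with or without radiation and with or without p53. The wild-type level was 407 FPKM without and 457 FPKM with radiation, and the mutant level was 380 FPKM without and 432 FPKM with it. The 4 libraries spanned a narrow range, with the irradiated library of each strain the higher. Xrp1 was above 97.6% to 98.4% of the genes at 1 FPKM or more, and its level was 16.0 to 19.6 times the median of those genes. In mock embryos it was 1.33 times that median in either strain, and in irradiated wild-type embryos 7.58 times. The tissues were processed in separate tables, so the FPKM values of Xrp1 were not compared directly between them. In whole heads and whole embryos, a different number of cells that hold Xrp1 and a different amount per cell cannot be told apart.

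**Figure D1:**
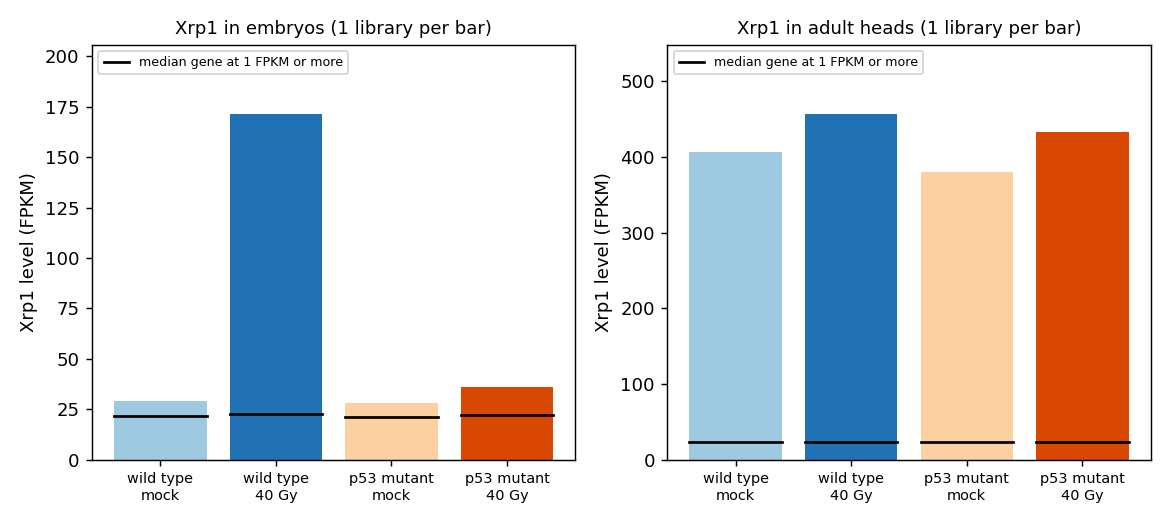
Xrp1 level in FPKM (vertical axis, from 0, with a separate scale for each tissue) in the 8 RNA libraries, 1 library per bar, with no error bars because no group has replicates. Black lines mark the median of genes at 1 FPKM or more in that library. The irradiated wild-type embryo library stands at 171 FPKM against 28.2 to 36.0 FPKM in the other embryo libraries, and the 4 head libraries stand between 380 and 457 FPKM.

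The bZIP family gave the same picture per length of transcript. Of Xrp1 and 19 other bZIP genes found in the tables, Xrp1 ranked second in each of the 4 head libraries, behind crc, the fly ATF4, which stood at 507 to 539 FPKM. In mock embryos of either strain it ranked 11th of 20, and in irradiated mutant embryos 8th. In irradiated wild-type embryos it ranked second, again behind crc at 322 FPKM.

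The first comparison asked how Xrp1 responded to radiation in wild-type embryos. The transcript rose 5.86-fold, with a 95% counting interval of 5.42 to 6.34, and by 2.51 on the log2(FPKM + 1) scale. Such intervals come from the estimated fragments and cover counting error only. The same value, 2.51, stands in the authors' deposited table. It was the 33rd highest difference of the 10654 genes tested, which reached 1 FPKM in some embryo group, and of which 1.32% were higher and 0.892% lower by 2-fold or more. Among 12 other genes listed as p53 targets, only skl at 3.14 and rpr at 2.54, both inhibitors of the caspase inhibitor Diap1, had larger differences than Xrp1. The differences of rpr and Xrp1 lay within the counting error of 0.11. Corp, a negative regulator of p53, followed at 2.21. In all 9 of the 12 rose and none fell, with a median of 1.34 beside 0.02 for all genes tested. Part of this list was chosen by others on fly embryos after radiation. A rise here was thus partly built into the list, and its counts in embryos and heads are not compared.

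In mutant embryos the same dose gave a ratio of 1.28 for Xrp1, with a counting interval of 1.16 to 1.40 and a log2 difference of 0.34. The authors' deposited table gives 0.34 as well. Here 774th of 10654 genes, Xrp1 stayed within 2-fold, as did all 12 p53 targets, whose median was 0.12. Of all genes tested in mutant embryos 1.02% were higher and 0.948% lower. Among the p53 targets RnrL had the same difference, 0.34, and mre11, of the double-strand break processing complex, had 0.30.

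Subtracting the mutant radiation difference from that of wild type gives the difference in response between the strains, called p53-dependent here. For Xrp1 in embryos it was 2.17 on the log2 scale, with a counting error of 0.175 at the 95% level, and it ranked 54th of 10654. A rise of 2-fold or more in wild type that also exceeded the mutant difference by 2-fold was seen in 0.873% of the genes tested. Without radiation the mutant over wild-type ratio of Xrp1 was 0.966, with an interval of 0.872 to 1.07 that includes equal levels. Among irradiated embryos the mutant held 0.210 of the wild-type level, with an interval of 0.196 to 0.225, and a log2 difference of -2.22. Of all genes 3.05% were lower by 2-fold or more in this comparison, and Xrp1 was the 71st lowest. The 7 maternal transcripts summed to 77.2 and 108 FPKM in wild-type embryos without and with radiation and to 159 and 199 FPKM in mutant embryos, and their part in the Xrp1 difference was not tested. The 7 gut protease genes summed to 12.2 FPKM in mock and 86.1 FPKM in irradiated wild-type embryos, against 60.6 and 126 FPKM in the mutant, and their part was not tested either.

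In heads Xrp1 differed little with radiation in either strain. The irradiated over mock ratio was 1.12 in wild-type heads, with a counting interval of 1.08 to 1.16, and 1.14 in mutant heads, with an interval of 1.10 to 1.18. The log2 differences of 0.17 and 0.19, which the authors' deposited table gives as 0.167 and 0.187, left a wild-type minus mutant difference of -0.02 with a counting error of 0.071. In wild-type heads Xrp1 ranked 1998th of 10672 genes, and 1.52% of genes were higher and 0.487% lower by 2-fold. In mutant heads 0.637% were higher and 0.731% lower. Mutant over wild-type ratios of Xrp1 were 0.934 in mock heads, with an interval of 0.900 to 0.968, and 0.947 in irradiated heads, with an interval of 0.915 to 0.979. Of the 11 p53 targets that reached 1 FPKM in heads, 3 rose in wild-type heads, namely RnrL by 1.48, Ku80 by 1.26 and Irbp by 1.23, and none in mutant heads. RnrL encodes a subunit of ribonucleotide reductase, and Ku80 and Irbp (the fly Ku70) act in DNA end joining. The 7 gut protease genes summed to 170 FPKM in irradiated wild-type heads against 2.75 to 7.42 FPKM in the other head libraries, and 6 immune effectors to 2824 and 2880 FPKM in mutant against 385 and 595 FPKM in wild-type heads. Their part in the Xrp1 values was not tested. Whether the Xrp1 response differed between embryos and heads was not tested.

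**Figure D2:**
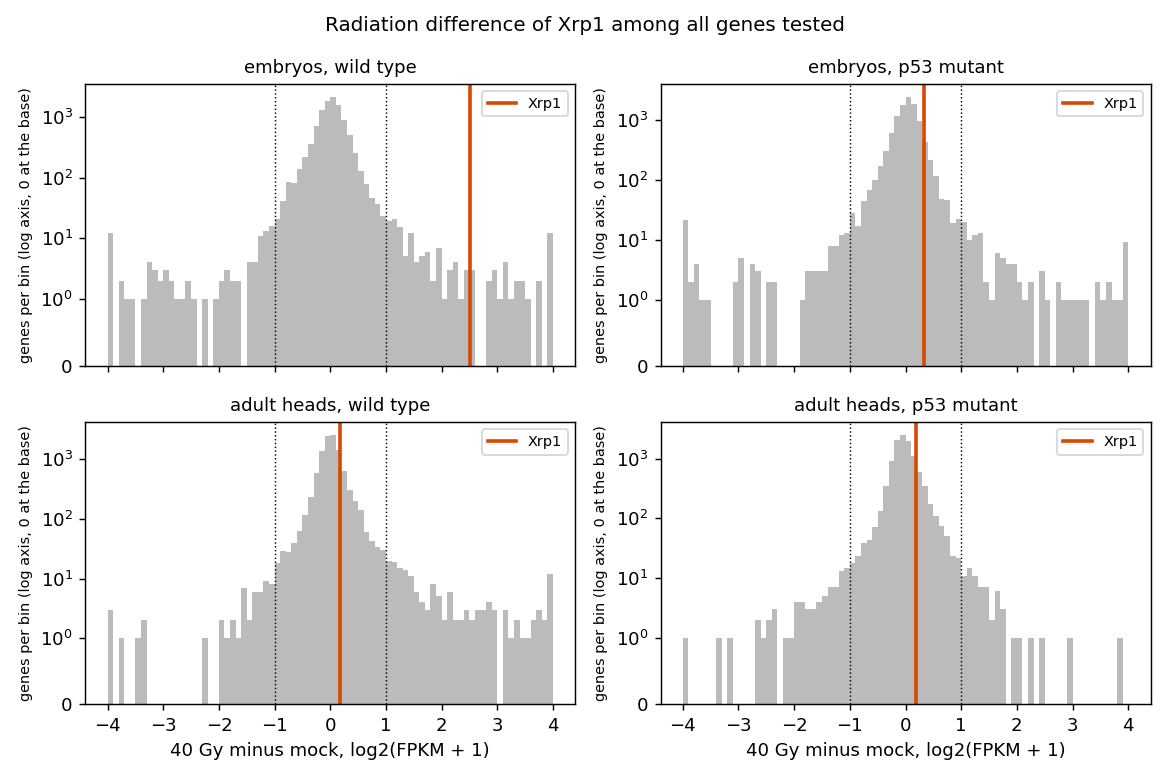
Number of genes (vertical axis, logarithmic above 1) by their radiation difference on the log2(FPKM + 1) scale (horizontal axis, values beyond 4 gathered in the outermost bins), for each tissue and strain. The orange line marks Xrp1 and the dotted lines mark 2-fold. Xrp1 lies far right of the bulk at 2.51 in wild-type embryos and inside 2-fold, at 0.17 to 0.34, in the other 3 panels.

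The partner and pathway genes of Xrp1 were then described as a list of 15, chosen from what is known of Xrp1 with earlier results of these data in view. In wild-type embryos 1 of 13 tested members rose, none fell, and the median was 0.24 beside 0.02 for all genes. Of all genes tested there, 1.32% were higher and 0.892% lower by 2-fold or more. The member that rose was Irbp18, the DNA-binding partner of Xrp1, listed in the tables as CG6272. It stood at 39.7 FPKM in mock and 90.9 FPKM in irradiated wild-type embryos, a log2 difference of 1.18, and stood at 32.9 and 38.8 FPKM in mock and irradiated mutant embryos, a difference of 0.23. As for Xrp1, the irradiated wild-type library was the high one, and the p53-dependent difference of Irbp18 was 0.95. In heads Irbp18 stood at 104 FPKM (mock) and 159 FPKM (irradiated) in wild type and at 116 FPKM (mock) and 118 FPKM (irradiated) in the mutant, again highest in the irradiated wild-type library, with differences of 0.60 and 0.02 that stayed within 2-fold. Xrp1 in heads was also highest in the irradiated wild-type library, but its difference in the mutant was 0.19. A p53 peak lay within 5 kb of an annotated Irbp18 start in neither tissue.

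The other members of the list stayed within 2-fold after radiation in both strains and both tissues. The stress kinases PEK and Gcn2, which act on the translation factor eIF2alpha, had differences of 0.31 and 0.39 in wild-type embryos and 0.17 and 0.23 in mutant embryos. The translation inhibitor Thor (4E-BP) had 0.33 and -0.16, and crc had 0.05 and -0.04. The glutathione transferase genes GstD1 and GstE6 had 0.35 and 0.47 in wild-type and 0.20 and 0.30 in mutant embryos. GstE6 in heads stood at 114.6 FPKM in mock and 182 FPKM in irradiated wild type, a difference of 0.66, and stood at 105 and 103 FPKM in the mutant.

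Further members had small differences. RpS12, a ribosomal protein gene known to act upstream of Xrp1 in cell competition, differed by -0.15 in wild-type embryos and -0.28 in wild-type heads. In wild-type embryos the differences of puc (a JNK phosphatase), tefu (the fly ATM kinase), Nedd4 (a ubiquitin ligase), eIF-2alpha and Atf3 (a bZIP factor) lay at 0.12, 0.24, 0.09, -0.02 and -0.10. The secreted factors Ilp8, a relaxin-like hormone, and upd3, a JAK-STAT ligand, stayed below 1 FPKM in all embryo libraries. In heads Ilp8 was at 1.16 FPKM in wild-type mock flies and at 0.107 to 0.195 FPKM in the other 3 libraries, which on the log2(FPKM + 1) scale is a difference of -0.85 in wild type. With a pseudocount of 0.1 FPKM in place of 1, Ilp8 was the 1 circuit gene past 2-fold there. The median of the list was 0.07 in mutant embryos, 0.12 in wild-type heads and -0.02 in mutant heads, where 0 members passed 2-fold. Of all genes tested, 1.02% were higher and 0.948% lower in mutant embryos. In wild-type heads 1.52% were higher and 0.487% lower, and in mutant heads 0.637% and 0.731%.

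**Figure D3:**
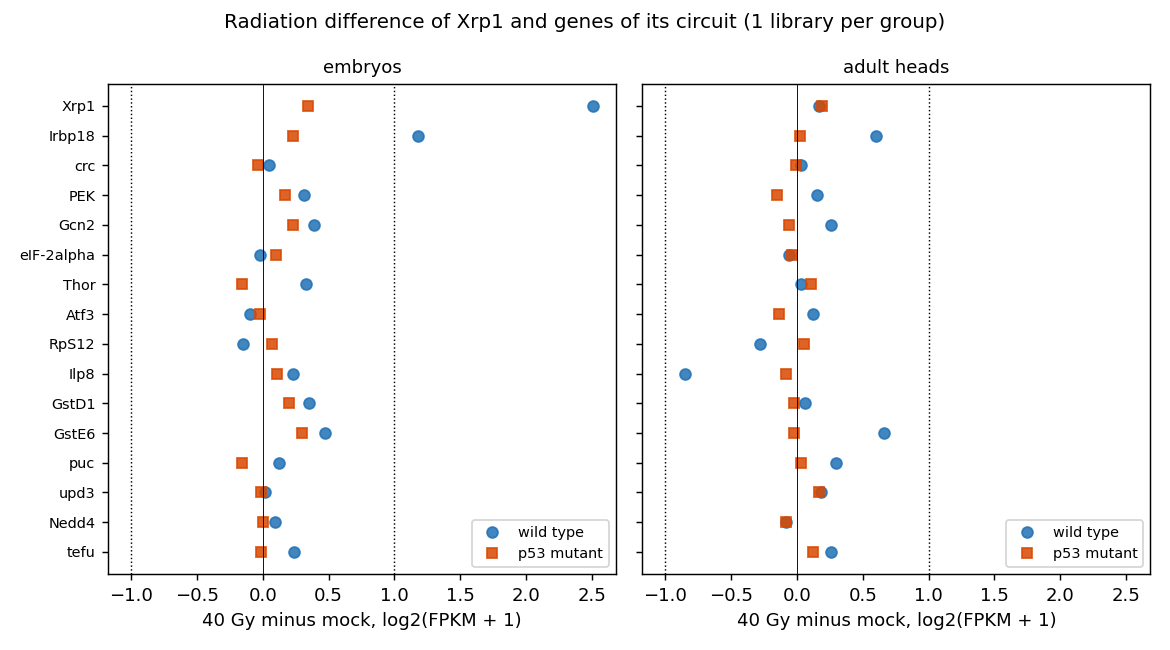
Radiation difference on the log2(FPKM + 1) scale (horizontal axis) for Xrp1 and the 15 genes of its circuit (rows) in wild type (blue circles) and p53 mutant (orange squares), 1 library per group, with dotted lines at 2-fold. In embryos Xrp1 at 2.51 and Irbp18 at 1.18 lie past the line in wild type, and in heads no gene does.

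Between unirradiated strains none of the 13 circuit genes tested in embryos and none of the 15 in heads passed 2-fold, where 4.94% of all genes were higher and 2.44% lower in mutant embryos, and 4.33% higher and 3.26% lower in mutant heads. The largest differences were -0.67 for crc and 0.81 for GstD1 in embryos, and -0.88 for Ilp8 and -0.60 for Thor in heads. With a pseudocount of 0.1 FPKM, Ilp8 passed 2-fold in heads.

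Most other bZIP genes stayed within 2-fold. Of the 18 family members tested in wild-type embryos, Irbp18 was the 1 that rose, beside 1.32% of all genes, and the median was 0.03. The others spanned -0.30 for gt, a gap gene, to 0.36 for kay, the fly Fos. In mutant embryos, wild-type heads and mutant heads none of 18 passed 2-fold, with medians of -0.04, 0.04 and 0.04. Among all genes, 1.02% were higher and 0.948% lower in mutant embryos. In wild-type heads 1.52% were higher and 0.487% lower, and in mutant heads 0.637% and 0.731%. In heads vri, a transcription factor of the circadian clock, had the highest value in the mutant at 0.75. Between mock strains gt was the 1 bZIP gene of 18 past 2-fold in heads, and none was past it in embryos. In mock heads gt stood at 22.2 FPKM in the mutant and 8.98 FPKM in wild type, a difference of 1.22. Of all genes, 4.33% were higher and 3.26% lower in mutant mock heads, and 4.94% and 2.44% in mutant mock embryos. Nothing particular to the family is read from these strain counts.

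Genes beside Xrp1 on the chromosome were examined next, 9 in all that overlap the window or start within 20 kb of it. Mpc1, which encodes a subunit of the mitochondrial pyruvate carrier, is read from the opposite strand and ends 6 bp beyond the end of Xrp1, at 3R:18926996-18928659. It stood at 47.4, 50.1, 43.6 and 49.9 FPKM in wild-type mock, wild-type irradiated, mutant mock and mutant irradiated embryos. No embryo library stood out, and in heads its 4 values lay between 143 and 157 FPKM. The 6 neighbours tested in embryos, which were Mpc1, EndoA, Sgsh (CG14291 in the tables), CG42613, CG34284 and CG14292, differed by -0.14 to 0.13 with radiation in wild type. In mutant embryos they differed by -0.09 to 0.89, with CG14292 at the top. Among irradiated embryos CG14292 was the 1 neighbour past 2-fold between strains, at 9.39 FPKM in the mutant and 2.56 FPKM in wild type, a difference of 1.55, where 6.43% of all genes were higher in the mutant. In heads the 5 tested neighbours, among them Rh2, the rhodopsin of the ocelli, differed by -0.13 to 0.06 in wild type and by -0.67, for Sgsh, to 0.03 in the mutant. CG14297 and CG14294 stayed below 1 FPKM in all 8 libraries.

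The genes whose pattern was most like that of Xrp1 were sought among 9242 genes at 1 FPKM or more in both tissues, over the 8 libraries after subtracting each tissue's mean log2(FPKM + 1). By root mean square distance, which also weighs size, the nearest was CG12194 at 0.158. It stood at 11.9 and 60.0 FPKM in mock and irradiated wild-type embryos, at 13.3 and 14.6 FPKM in mutant embryos, and at 76.3 to 83.4 FPKM in heads. CG12194 was picked on these same values, so the single high embryo library that it shares with Xrp1 is no separate finding. In heads it differed with radiation by -0.11 in wild type and -0.09 in the mutant, against 0.17 and 0.19 for Xrp1. The next were skl at 0.234, rpr at 0.255, CG1504 at 0.289 and Rab3-GEF, an exchange factor for the vesicle GTPase Rab3, at 0.30.

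By Pearson correlation of the same values, which ignores size, the nearest genes were CG9836 (IscU in RefSeq, the scaffold of iron-sulfur cluster assembly) at 0.997, CG1882 (puml in RefSeq) at 0.989, CG42666 (prage in RefSeq) at 0.989, CG12194 at 0.986 and CG9945 at 0.983. Of these, CG42666 rose 1.43 and CG9836 rose 1.07 with radiation in wild-type embryos, CG12194 rose 2.24, and CG1882 and CG9945 differed by 0.96 and 0.60. These correlations are descriptions over 8 libraries, and the values correlated share libraries and depth.

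Binding of p53 at Xrp1 was measured in both tissues. In embryos the peak lay at 3R:18923945-18924590, with its summit at 18924408, a fold of 7.35 for wild type over mutant chromatin and a −log10 q of 94.4. These values are the authors' own for each peak. It had the highest fold of the 135 embryo peaks, where the next, nearest to a start of Tom on 3L, had 5.65 and the median peak 2.48. It also had the highest −log10 q.

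In heads the peak lay at 3R:18923721-18924643 with its summit at 18924413, a fold of 11.7 and a −log10 q of 203. It ranked 7th by fold of the 392 head peaks, whose median was 2.93. The peak ranked just above, nearest to a start of Tlk on X, had a fold of 11.9, and the one just below, nearest to a start of rdx on 3R, had 11.3. The embryo peak lay wholly within the head peak, and the summits were 5 bp apart. In all, 73 of the 135 embryo peaks overlapped a head peak by at least 1 bp.

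Both peaks sat at the start of the shortest annotated Xrp1 transcript. The annotation gives 7 transcripts from 4 start positions. The 3 upstream starts, at 18914968, 18918260 and 18919788, lie 4620 to 9440 bp before the embryo summit, within transcripts whose long intron spans the peak. The start of Xrp1-RD, at 18924070, lay inside both peaks. The embryo peak reached from 125 bp before to 520 bp after that start, and the head peak from 349 bp before to 573 bp after it. The summits fell in the first intron of Xrp1-RD, which follows an exon of 76 bp and is 932 bp long, at 263 and 268 bp into it. For the other 6 transcripts the summits were intronic and the peaks touched no exon.

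Xrp1-RD, like Xrp1-RC and Xrp1-RE, encodes the shorter protein of 406 residues, while the other 4 transcripts encode one of 668 residues. The coding start of the shorter protein lay 768 bp beyond the embryo summit. The expression tables give 1 value per gene, so which transcripts changed with radiation was not measured.

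**Figure D4:**
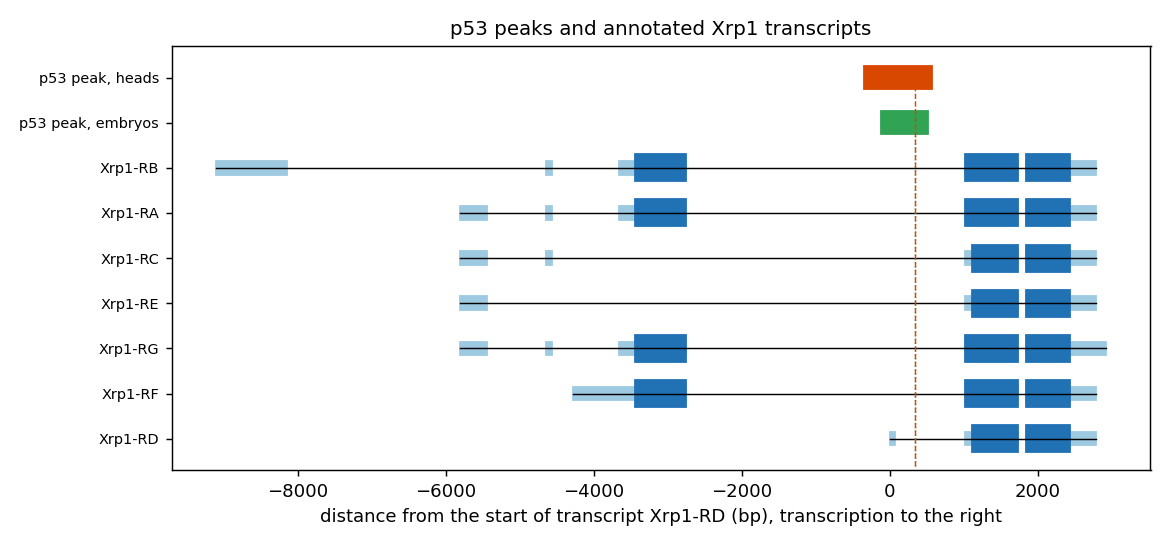
Annotated transcripts of Xrp1 and the p53 peaks of both tissues, with distance in bp from the start of Xrp1-RD on the horizontal axis and transcription to the right. Dark blue boxes are coding parts of exons, light blue boxes the other exon parts, thin lines introns, and dashed vertical lines the 2 summits. Both peaks cover the start of Xrp1-RD, and the summits at 338 bp (embryos) and 343 bp (heads) overlie each other.

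In both tissues Xrp1 had a higher fold than every other listed p53 target with a peak within 5 kb of a start. Of all 13986 annotated protein-coding genes, 1.14% had a peak summit within 5 kb of a start in embryos and 4.43% in heads. Of the 12 targets, 4 had such a peak in embryos, which were egr, the fly tumour necrosis factor, at fold 5.04 and rank 5, rpr at 4.59 and rank 9, hid (W in the tables) at 3.64 and rank 25, and Corp at 3.03 and rank 39. In heads 3 did, with Corp at 8.17 and rank 26, egr at 4.32 and rank 95, and hid at 4.11 and rank 104. The embryo summits lay 45 bp (egr), 4870 bp (rpr), 2012 bp (hid) and 282 bp (Corp) from a start. The head summits lay 256 bp (Corp), 2 bp (egr) and 127 bp (hid) from one. The targets skl and WRNexo and the repair targets Irbp, Ku80, mus205, lig3, mre11 and RnrL had none in either tissue. In the other lists the counts were 1 of 20 bZIP genes in embryos and 2 in heads, and 0 of 15 circuit genes in embryos and 1 in heads, from which nothing particular to these lists is read. REPTOR, a factor downstream of the TORC1 kinase, had a peak of fold 3.08 in embryos and of 11.3, at rank 9, in heads, and vri had one of fold 2.45 in heads. The circuit gene was Nedd4, with a peak of fold 3.01 in heads, 3643 bp from a start.

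**Figure D5:**
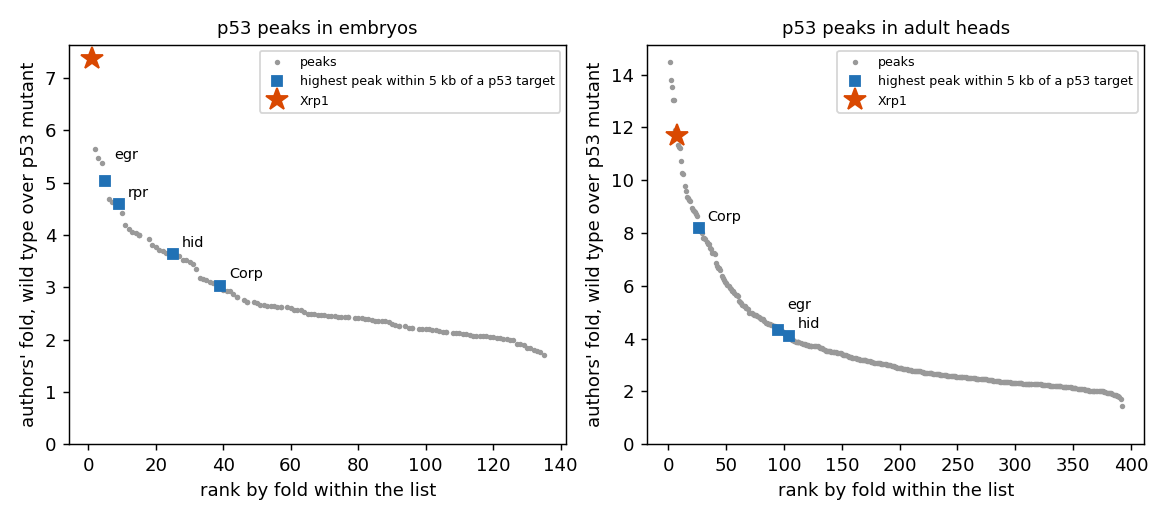
Authors' fold of wild type over mutant chromatin (vertical axis, from 0) against rank by fold (horizontal axis) for every p53 peak in each tissue. The orange star marks Xrp1, first in embryos at 7.35 and 7th in heads at 11.7, and blue squares mark the highest peak within 5 kb of a start of another listed p53 target.

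Binding and the transcript were set side by side. Of 53 genes tested in embryos that have a start within 1000 bp of an embryo peak summit, 6 rose in irradiated wild-type embryos. This was 11.3% beside 1.32% of all genes tested, and 1 fell, where 0.892% of all genes did. Xrp1 is itself 1 of these 6, with the second highest difference, after Rab3-GEF. Of 240 genes tested in embryos with a start as near to a head peak summit, 8 rose in irradiated wild-type embryos, or 3.33%, and 0 fell. Xrp1 and Rab3-GEF are among these 8 as well, so the 2 counts share genes and are not separate. Of 247 genes tested in heads that have a start as near to a head peak summit, 1 rose in irradiated wild-type heads, or 0.405% beside 1.52% of all genes tested, and Xrp1 was 31st by its difference. In mutant chromatin the antibody signal is the background of each fold, so a level of binding there was not measured, and no irradiated chromatin was analysed here.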

How the data were processed

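Expression was deposited as 1 table for each tissue, whose FPKM values the authors obtained with Cuffdiff after cutadapt, TopHat2, Picard and SAMtools on dm6, per the submitters' processing notes. Tool versions, the annotation and any pooling: not given in the sources used here. Deposited columns of the authors' log2 fold changes differed by at most 0.0167 from the values computed here. The deposited peak lists give the authors' fold (ratio), −log10 p-value, −log10 q-value, score and summit of each peak, made with Bowtie2 and MACS2 for wild type over mutant, per the labels and the processing notes. Per the labels, polyA RNA went into paired-end stranded libraries, and chromatin was fixed for 10 min in 1% formaldehyde and sheared to 200 to 300 bp.

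Differences were taken within a table as log2(FPKM + 1), for genes that reached 1 FPKM in any of the 4 groups, and counted at 2-fold, which understates changes of low genes. With 1 library per group no test was possible. Depth was estimated from single-transcript genes (800 to 3000 bp), whose FPKM multiplied by length moves in steps of 1 fragment, after reducing the length by up to 250 bp (150 bp for the depths printed). Fragments of Xrp1 used the lowest depth and a length of 1490 bp, and gave exact (Clopper-Pearson) binomial intervals of ratios. Transcripts came from Ensembl release 115 (BDGP6, the same assembly as dm6). Of 12301 symbols found in it, 58.7% had the same start and end as in the tables, Xrp1 among them. All 15 circuit genes, 12 p53 targets and 19 of 20 other bZIP genes were found in the tables.

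Genes named are Xrp1, the circuit list, bZIP genes and p53 targets past 2-fold, neighbours within 20 kb, the 5 nearest by each measure of likeness, and peaks in the window with their neighbours in rank. Other p53 targets, bZIP genes with end values and those with peaks were named after their values were seen. The gene and the lists were chosen with earlier results of these data known. Python 3.11.15, pandas 2.3.3 and SciPy 1.17.1 were used, and the calculations were tested on simulated data. No p53 motif search was made, and no sequence is shown.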

Additional observations from a re-analysis of the deposited data

How the results depend on the processing

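With pseudocounts of 0.1 and 5 FPKM and with 2 rescalings of the libraries, the radiation difference of Xrp1 in wild-type embryos ranged from 2.37 to 2.55 and in mutant embryos from 0.30 to 0.35, the p53-dependent difference in embryos from 2.06 to 2.20, and the differences in wild-type and mutant heads from 0.14 to 0.17 and from 0.19 to 0.22. The values that moved beyond counting error were the wild-type embryo difference (2.37) and the irradiated strain difference of embryos (-2.10) at 5 FPKM, and the mock strain difference of heads (-0.15) after scaling to a common 75th percentile; the cause was not tested. Among all genes of a table, Xrp1 was above 74.9%, 96.3%, 74.2% and 77.9% in wild-type mock, wild-type irradiated, mutant mock and mutant irradiated embryos and above 98.8%, 99.0%, 98.6% and 98.7% in the same groups of heads. At a pseudocount of 0.1 FPKM, 1 circuit gene (Ilp8, near 0 in 3 of 4 libraries) passed 2-fold in wild-type heads with radiation and 1 between mock strains of heads. Ranked by q-value, the head peak of Xrp1 was 4th. Of 127 recalculated values, among them those with no filter, a filter of 5 FPKM and stricter peaks, the other 113 moved less than this. Only Xrp1 differences of 2-fold or more were checked for a change of sign, and 0 reversed. The p53 motif alternatives were not run, as no genome was used here. No paired analysis was possible because each group has 1 library, and for the same reason no replicate could be left out.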
